A study of Arabidopsis thaliana with 18 samples.

Results

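Transcript levels of 6 cytosolic chaperone and co-chaperone genes were followed in Arabidopsis thaliana seedlings of the mutant arp6-10 and of Col-0 as they were moved from cool to warm conditions. The genes were the Hsp70 chaperones Hsp70-2 (AT5G02490) and HSC70-3 (AT3G09440), the DNAJ protein AT2G20560, the Hsp70-Hsp90 organising protein Hop3 (AT4G12400), the immunophilin ROF2 (AT5G48570) and the thermotolerance protein HSA32 (AT4G21320). They were taken as the probe sets that the probe annotation pairs with these loci. Each locus had 1 probe set, so there were 6 members among 22746 probe sets other than controls, and all 6 were among the 15922 that passed the filter on dim probe sets. Hsp70-2 and ROF2 lie on chromosome 5, HSC70-3 on chromosome 3, AT2G20560 on chromosome 2, and Hop3 and HSA32 on chromosome 4.

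Each genotype was sampled at 12 °C and at 2 h and 24 h after a step to 27 °C, with 4 arrays in each arp6-10 group and 2 in each Col-0 group. In every group seeds were held at 4 °C in the dark for 48 h and germinated at 20 °C, and seedlings aged 5 days were then given 3 days at 12 °C under continuous light. Whole seedlings were used, so fewer cells of a type and less RNA per cell cannot be told apart. No group stayed at 12 °C for 2 h or 24 h more, and the effect of warmth and of the time elapsed cannot be told apart. The labels do not say whether arrays within a group represent independent cultures, and the p-values therefore cover only the array-to-array spread, which may be technical. ARP6 itself was not analysed here, and the mutant was not checked by its own transcript.

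Hsp70 proteins bind unfolded stretches of other proteins and release them in a cycle driven by ATP. J-domain proteins bring clients to Hsp70 and speed up its ATP hydrolysis, Hop proteins bridge Hsp70 and Hsp90, and immunophilins of the ROF kind bind Hsp90 and isomerise prolyl bonds. HSA32 is a heat-induced protein of plants known for prolonging acquired thermotolerance. ARP6 belongs to SWR1, a chromatin remodelling complex that exchanges histone H2A for its variant H2A.Z. According to its title, the study addressed how nucleosomes holding this variant take part in sensing temperature.

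The arrays labelled arp6-10 12 °C replicate 3 and arp6-10 24 h replicate 2 went against their labels. On an axis over all tested probe sets that runs from 0 (the other arp6-10 arrays at 12 °C) to 1 (those at 24 h) they lay at 0.956 and -0.0356. The remaining arp6-10 arrays at 12 °C lay at 0.0801 to 0.143, those at 2 h at 0.502 to 0.633 and those at 24 h at 0.884 to 0.928. The labels were kept, and results use all 18 arrays. For the 6 genes, the value on 16 arrays, leaving out both, is added where it changed the call or the direction of a printed result. Where only the size moved, it is given for some results and not for all. Both arrays were picked by their place on the axis from 12 °C to 24 h in arp6-10. Leaving them out favours a call for that change, so p-values on 16 arrays are not independent tests of it. Calls in Col-0 at 24 h, on unchanged Col-0 arrays, also went from 2775 to 4964 probe sets. Correlation between arrays of a group was 0.916 to 0.987 over tested probe sets. The ratio of 3′ to 5′ GAPDH signal, a measure of RNA integrity, ran from 1.47 to 6.78. It was 5.51 and 1.51 on the arrays at odds with their labels. The highest ratio was on Col-0 2 h replicate 2, 1 of the 2 arrays of its group. That array also had the highest hybridisation controls. The mean level of 3 shoot marker genes, out of 9 listed, was 12.78, 13.08 and 13.25 in arp6-10 at 12 °C, 2 h and 24 h, and 12.46, 13.06 and 13.59 in Col-0, on a log2 scale. That of 3 root marker genes, out of 10 listed, lay between 9.41 and 10.55 on all arrays. Hybridisation controls averaged 2813 to 4579 on arp6-10 arrays and 4215 to 6573 on Col-0 arrays, and the part of these measures in the results was not tested.

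Values per array are intensities as deposited. Means, differences and tests are on log2(intensity + 16) after quantile normalisation, a scale that cannot go under 4 and understates changes of dim genes. Calls used limma with p-values adjusted by Benjamini-Hochberg over all tested probe sets, and a threshold of 0.05. A group mean under 5, a limit chosen here and not measured, is not shown to be above background, and a fold against it is a rough value. Comparisons within a genotype share the 12 °C arrays, so their values are given side by side only.

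**Figure D1:**
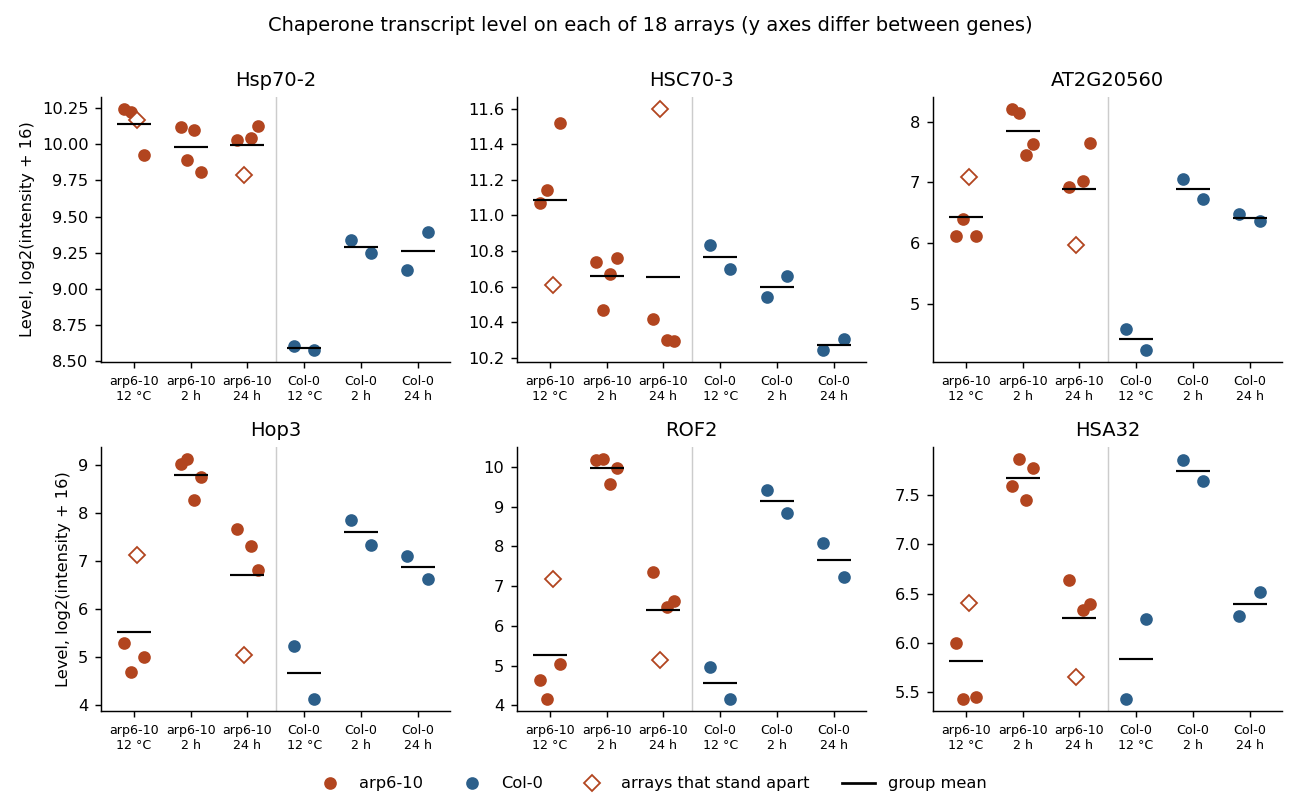
Level of each of the 6 genes, as log2(intensity + 16) after quantile normalisation, on every array of the 6 groups; circles are arrays, open diamonds the 2 arp6-10 arrays at odds with their labels, and lines group means. ROF2, Hop3 and HSA32 are highest at 2 h in both genotypes, and Hsp70-2 has every arp6-10 array above every Col-0 array.

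Hsp70-2, a cytosolic Hsp70, was higher in arp6-10 than in Col-0 at all 3 points. In arp6-10 its intensity was 1223.3, 1166.8, 1082.8 and 960.1 at 12 °C, 1123.4, 957.9, 1086.4 and 904.2 at 2 h, and 999.9, 885.9, 1008.5 and 1081.4 at 24 h. In Col-0 it was 347.7 and 337.9 at 12 °C, 611.6 and 566.1 at 2 h, and 546.9 and 658.6 at 24 h. The lowest of the 12 arp6-10 arrays lay above the highest of the 6 Col-0 arrays, and within arp6-10 the 3 points overlapped. The mean was 10.14 ± 0.15 in arp6-10 and 8.59 ± 0.02 in Col-0 at 12 °C (SD, n = 4 and 2), a difference of 1.55 ± 0.16 (SE) or 2.92-fold, with an adjusted p of 3.81e-06 (limma). The difference was 0.69 at 2 h (1.61-fold, adjusted p = 0.0139) and 0.74 at 24 h (1.67-fold, adjusted p = 0.0364). The call at 2 h was lost without Col-0 2 h replicate 1 or 2 (adjusted p of 0.0574 or more, at most 0.153), and that at 24 h in 7 of 18 fits that each left out 1 array, with adjusted p up to 0.266.

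After the step to 27 °C, Hsp70-2 rose in Col-0 by 0.70 at 2 h (1.62-fold, adjusted p = 0.0306) and by 0.67 at 24 h (1.59-fold, adjusted p = 0.0213). Both calls were lost on leaving out any 1 of the 4 arrays compared, with adjusted p of 0.0853 to 0.153 at 2 h and 0.064 to 0.125 at 24 h. In arp6-10 the change was -0.16 at 2 h (95% interval -0.43 to 0.12, adjusted p = 0.561) and -0.14 at 24 h (-0.42 to 0.13, adjusted p = 0.672). The 24 h response was lower in arp6-10 than in Col-0 by a tested difference of -0.81 ± 0.23 (SE, adjusted p = 0.0434). This call was lost in 16 of 18 fits that each left out 1 array, with an adjusted p up to 0.135. For the 2 h response the difference was -0.86 (adjusted p = 0.0858), and -0.85 with an adjusted p of 0.0438 on 16 arrays. In order, the 3 arp6-10 groups came first and overlapped, Col-0 at 2 h and 24 h followed and overlapped, and Col-0 at 12 °C lay apart below them.

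HSC70-3, another cytosolic Hsp70, passed no test with all arrays. In arp6-10 its intensity was 2131.5, 2218.1, 1433.8 and 2847.9 at 12 °C, 1681.9, 1440.8, 1634.5 and 1730.3 at 2 h, and 1297, 2930.3, 1201.5 and 1204.3 at 24 h. In Col-0 it was 1938.6 and 1786.3 at 12 °C, 1576.4 and 1664.1 at 2 h, and 1149.9 and 1230 at 24 h. The lowest value at 12 °C and the highest at 24 h in arp6-10 belong to the arrays at odds with their labels. With 18 arrays the 24 h value differed from the 12 °C value by -0.43 in arp6-10 (95% interval -0.94 to 0.08, adjusted p = 0.496) and by -0.49 in Col-0 (-1.21 to 0.22, adjusted p = 0.316). On 16 arrays it fell by 0.90 in arp6-10 (1.87-fold lower, adjusted p = 5.01e-05) and by 0.49 in Col-0 (1.41-fold lower, adjusted p = 0.0292). It also fell by 0.58 at 2 h in arp6-10 on those arrays (adjusted p = 0.00287), and at 12 °C it was 0.48 higher in arp6-10 than in Col-0 (adjusted p = 0.0176, against 0.434 with all arrays). Neighbouring groups overlapped down to Col-0 at 24 h, the lowest, which lay below the arrays of Col-0 at 2 h. On 16 arrays arp6-10 at 12 °C (11.07 to 11.52) lay above Col-0 at 12 °C (10.70 to 10.84). There arp6-10 at 24 h (10.30 to 10.42) lay below Col-0 at 2 h (10.54 to 10.66).

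AT2G20560, the DNAJ protein, rose at 2 h in both genotypes and was already higher in arp6-10 at 12 °C. In arp6-10 its intensity was 51.7, 71.7, 136.4 and 53.5 at 12 °C, 278.7, 264, 156 and 179.4 at 2 h, and 121.2, 49.2, 127.8 and 191.4 at 24 h. Col-0 arrays had 7.3 and 2.8 at 12 °C, 99.9 and 80.7 at 2 h, and 78.7 and 67.4 at 24 h. All 4 arp6-10 arrays at 12 °C lay above both Col-0 arrays at 12 °C, and among the other groups 1 array, of arp6-10 at 24 h, reached into the range of arp6-10 at 2 h. At 12 °C the mean was 6.42 ± 0.46 in arp6-10 and 4.41 ± 0.24 in Col-0 (SD, n = 4 and 2), a difference of 2.02 ± 0.36 (SE) or 4.04-fold, with an adjusted p of 0.000534. That fold is against a Col-0 mean under 5 and depends on the pseudocount, with a log2 difference of 3.58 at a pseudocount of 1 and 0.96 at 64. On 16 arrays the difference was 1.79. At 2 h the difference was 0.96 with no overlap of arrays (adjusted p = 0.103, and 0.00907 on 16 arrays), and at 24 h it was 0.47 (adjusted p = 0.585), or 0.78 on 16 arrays (adjusted p = 0.0919).

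AT2G20560 rose by 1.43 ± 0.29 (SE) at 2 h in arp6-10 (2.69-fold, adjusted p = 0.0135) and by 2.48 ± 0.42 in Col-0 (5.59-fold, adjusted p = 0.00279). The arp6-10 call was lost without arp6-10 2 h replicate 2 (1.33, adjusted p = 0.0509), and the Col-0 change was 4.15 at a pseudocount of 1 and 1.27 at 64. At 24 h it was 0.47 above the 12 °C level in arp6-10 (adjusted p = 0.532) and rose by 2.01 in Col-0 (4.02-fold, adjusted p = 0.00422), a call lost without Col-0 24 h replicate 1 (1.96, adjusted p = 0.0555). On 16 arrays the arp6-10 change at 24 h was 1.00 (1.99-fold, adjusted p = 0.00234). The responses of the genotypes differed by -1.06 at 2 h (95% interval -2.13 to 0.02, adjusted p = 0.36) and by -1.54 at 24 h (-2.61 to -0.47, adjusted p = 0.0826), neither called. The 24 h difference was called at a pseudocount of 1 (-3.05, adjusted p = 0.00942) and without arp6-10 24 h replicate 4 (-1.79, adjusted p = 0.0404), and it was -1.01 on 16 arrays (adjusted p = 0.0691). From 2 h to 24 h the change in arp6-10 was -0.96 (adjusted p = 0.113), and -0.65 with a call on 16 arrays (adjusted p = 0.0421). In order, arp6-10 at 2 h came first with no overlap with Col-0 at 2 h. Then Col-0 at 2 h, arp6-10 at 24 h, arp6-10 at 12 °C and Col-0 at 24 h each overlapped the next. Col-0 at 12 °C lay apart at the bottom. On 16 arrays arp6-10 at 24 h (6.93 to 7.65) did not overlap arp6-10 at 12 °C (6.11 to 6.39).

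Hop3, which carries clients from Hsp70 to Hsp90, rose at 2 h in both genotypes. In arp6-10 its intensity was 22.8, 11.2, 140 and 15 at 12 °C, 502.8, 545.8, 293.2 and 409.6 at 2 h, and 208.8, 17.6, 157.2 and 102.7 at 24 h. In Col-0 it was 23.2 and 1.5 at 12 °C, 193.6 and 130.3 at 2 h, and 131.9 and 83.3 at 24 h. Every arp6-10 array at 2 h lay above every other array, and the value of 140 at 12 °C and that of 17.6 at 24 h belong to the arrays at odds with their labels. At 2 h it was 3.26 ± 0.52 (SE) above the 12 °C level in arp6-10 (9.56-fold, adjusted p = 0.00209) and 2.92 ± 0.73 above it in Col-0 (7.55-fold, adjusted p = 0.024). On 16 arrays the arp6-10 change was 3.79 (13.8-fold). The Col-0 call was lost on leaving out any 1 of the 4 arrays compared, with adjusted p of 0.0664 to 0.145. With 12 °C means near or under 5 these Hop3 changes depend on the pseudocount, at 3.96 in arp6-10 and 4.59 in Col-0 with 1, and 2.31 and 1.69 with 64.

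At 24 h Hop3 was 1.18 above its 12 °C level in arp6-10 (adjusted p = 0.465), or 2.27 on 16 arrays (4.81-fold, adjusted p = 9.01e-06). In Col-0 it rose by 2.19 (4.55-fold, adjusted p = 0.0474), a call lost in 14 of 18 fits that each left out 1 array. From 2 h to 24 h it fell by 2.08 in arp6-10 (4.22-fold lower, adjusted p = 0.0476), a call lost in 15 of 18 such fits. On 16 arrays that change was -1.52 (adjusted p = 0.000691). The change in Col-0 was -0.73 (adjusted p = 0.62). Between genotypes the difference was 0.85 at 12 °C (adjusted p = 0.32), 1.19 at 2 h (adjusted p = 0.254, and 0.0109 on 16 arrays) and -0.16 at 24 h (adjusted p = 0.935). On 16 arrays it was 0.32 at 12 °C and turned to 0.40 at 24 h (adjusted p = 0.454 and 0.546). In order, arp6-10 at 2 h came before Col-0 at 2 h and Col-0 at 24 h with no overlap. Then arp6-10 at 24 h, arp6-10 at 12 °C and Col-0 at 12 °C followed, each overlapping the next. On 16 arrays arp6-10 at 24 h (6.81 to 7.67) did not overlap arp6-10 at 12 °C (4.69 to 5.29).

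ROF2, an immunophilin that binds Hsp90, had the largest change of the 6 at 2 h in both genotypes. In arp6-10 its intensity was 9.2, 2, 145.9 and 15.8 at 12 °C, 1168.4, 1208.6, 752.4 and 1012.3 at 2 h, and 165.9, 19.8, 81.4 and 87.6 at 24 h. Col-0 arrays had 16.1 and 1.8 at 12 °C, 655.4 and 423.5 at 2 h, and 266.3 and 137.7 at 24 h. Arrays at 2 h lay above all arrays at the other points in both genotypes, and those of arp6-10 lay above those of Col-0. The values of 145.9 at 12 °C and 19.8 at 24 h belong to the arrays at odds with their labels. At 2 h the mean was 9.98 ± 0.29 in arp6-10, against 5.26 ± 1.33 at 12 °C (SD, n = 4 each), a rise of 4.73 ± 0.52 (SE) or 26.5-fold (adjusted p = 6.67e-05). Without arp6-10 12 °C replicate 3, and likewise on 16 arrays, the rise was 5.37 (41.3-fold). The mean of the remaining 12 °C arrays was then 4.62, under 5 and so not shown to be above background. In Col-0 the mean was 9.14 ± 0.41 at 2 h, against 4.55 ± 0.57 at 12 °C (SD, n = 2 each), a rise of 4.59 ± 0.73 (SE) or 24.1-fold (adjusted p = 0.00221). These folds depend on the pseudocount: the arp6-10 and Col-0 changes were 5.95 and 6.38 at a pseudocount of 1, and 3.51 and 3.09 at 64.

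At 24 h ROF2 was 1.13 above its 12 °C level in arp6-10 (adjusted p = 0.467), or 2.19 on 16 arrays (4.57-fold, adjusted p = 1.43e-05). In Col-0 it was 3.11 ± 0.73 (SE) above it (8.64-fold, adjusted p = 0.00946), a call lost without Col-0 12 °C replicate 2 (2.71, adjusted p = 0.0704) or Col-0 24 h replicate 1 (2.68, adjusted p = 0.114). From 2 h to 24 h it fell by 3.59 in arp6-10 (12.1-fold lower, adjusted p = 0.00102), with a change of -3.18 on 16 arrays. The change in Col-0 was -1.48 (adjusted p = 0.266, and 0.00951 on 16 arrays). The genotypes differed by 0.71 at 12 °C (adjusted p = 0.417), 0.85 at 2 h with no overlap of arrays (adjusted p = 0.431) and -1.27 at 24 h (adjusted p = 0.364). On 16 arrays these were 0.07 at 12 °C and -0.85 at 24 h, with that at 2 h still 0.85 (adjusted p = 0.889, 0.16 and 0.0613). In order, arp6-10 at 2 h, Col-0 at 2 h and Col-0 at 24 h came first with no overlap between them. Then came arp6-10 at 24 h, arp6-10 at 12 °C and Col-0 at 12 °C, each overlapping the group above it. On 16 arrays arp6-10 at 24 h (6.47 to 7.34) did not overlap arp6-10 at 12 °C (4.16 to 5.04).

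HSA32 rose at 2 h to like levels in both genotypes and had fallen again by 24 h. In arp6-10 its intensity was 47, 28.6, 78.4 and 26.7 at 12 °C, 177.1, 214.7, 156.5 and 202.1 at 2 h, and 97.4, 36.8, 72.8 and 73.4 at 24 h. Col-0 arrays had 28.3 and 47.4 at 12 °C, 191.9 and 167.6 at 2 h, and 66.9 and 76.1 at 24 h. The 6 arrays at 2 h lay above the other 12, and the genotypes overlapped at 12 °C, 2 h and 24 h. At 2 h it was 1.85 ± 0.24 (SE) above the 12 °C level in arp6-10 (3.60-fold, adjusted p = 0.00036) and 1.91 ± 0.34 above it in Col-0 (3.75-fold, adjusted p = 0.00427). The Col-0 call was lost without Col-0 12 °C replicate 1 (adjusted p = 0.0716).

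The 2 h responses of HSA32 differed by -0.06 ± 0.42 (SE) between genotypes, with a 95% interval of -0.94 to 0.83, and by 0.14 on 16 arrays (-0.55 to 0.82). From 2 h to 24 h HSA32 fell by 1.41 in arp6-10 (2.66-fold lower, adjusted p = 0.00445) and by 1.35 in Col-0 (2.55-fold lower, adjusted p = 0.0331). The Col-0 call was lost on leaving out any 1 of the 4 arrays compared (adjusted p of 0.0832 to 0.231). At 24 h it was 0.43 above the 12 °C level in arp6-10 (adjusted p = 0.497), or 0.83 on 16 arrays (adjusted p = 0.00599), and 0.56 above it in Col-0 (adjusted p = 0.261). Between genotypes the difference was -0.02 at 12 °C (95% interval -0.64 to 0.61), -0.07 at 2 h (-0.70 to 0.55) and -0.14 at 24 h (-0.76 to 0.49). On 16 arrays it was -0.21 at 12 °C and 0.06 at 24 h, so the sign at 24 h turned. In order, both groups at 2 h overlapped at the top, and Col-0 at 24 h, arp6-10 at 24 h, Col-0 at 12 °C and arp6-10 at 12 °C followed, each overlapping the next.

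**Figure D2:**
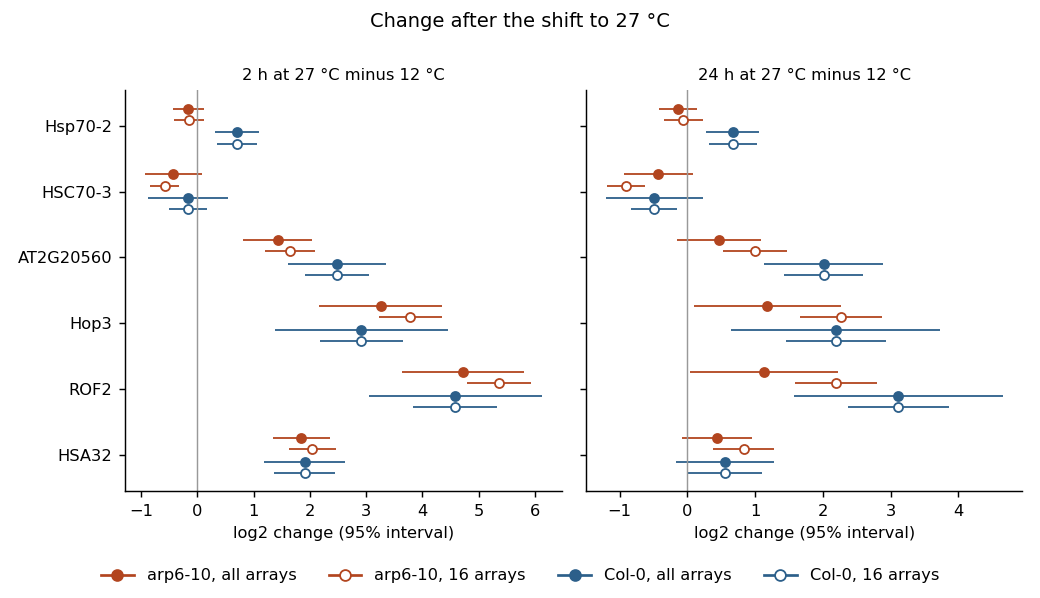
Change of each gene at 2 h and at 24 h after the step to 27 °C against 12 °C in arp6-10 and Col-0, as a log2 difference with its 95% interval; filled points use all 18 arrays, open points 16. At 2 h ROF2 shows the largest change in both genotypes, 4.73 in arp6-10 and 4.59 in Col-0.

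Read across the 6 genes, the co-chaperones ROF2, Hop3 and AT2G20560 and the thermotolerance protein HSA32 rose at 2 h in both genotypes, while of the Hsp70 genes only Hsp70-2 was called, and in Col-0. In arp6-10 at 2 h, 4 of 6 were called higher and 0 lower, where 1.86% of tested probe sets were called higher, and the median change was 1.64 against 0.00 over all tested. In Col-0 at 2 h, 5 of 6 were called higher, where 4.36% of tested probe sets were, with a median of 2.19 against 0.00. On 16 arrays the counts were 4 higher and 1 lower in arp6-10, where 8.4% and 8.62% were called, and 5 higher in Col-0, where 11.2% were. The 6 genes, and the lists below, were chosen with earlier results of these data known. Counts beside shares of all tested probe sets, here and below, therefore describe the genes and do not test them as a set.

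At 24 h in arp6-10, 0 of 6 were called, as were 0% of tested probe sets (limma, with 1689 at an unadjusted p under 0.05). On 16 arrays ROF2, Hop3, AT2G20560 and HSA32 were called higher and HSC70-3 lower, where 14% and 14.9% of tested probe sets were. The arrays left out were picked along this same change, so these calls are not independent tests of it. In Col-0 at 24 h, ROF2, Hop3, AT2G20560 and Hsp70-2 were called higher, 4 of 6, where 10.3% of tested probe sets were. On 16 arrays the count was 4 higher and 1 lower, HSC70-3, where 16.9% and 14.3% were called. From 2 h to 24 h, 3 of 6 fell in arp6-10 (ROF2, Hop3 and HSA32), where 0.923% of tested probe sets did, and 4 on 16 arrays, where 7.82% did. In Col-0, HSA32 alone fell among the 6, where 1.94% of tested probe sets did, and on 16 arrays ROF2 fell too, where 6.24% did.

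**Figure D3:**
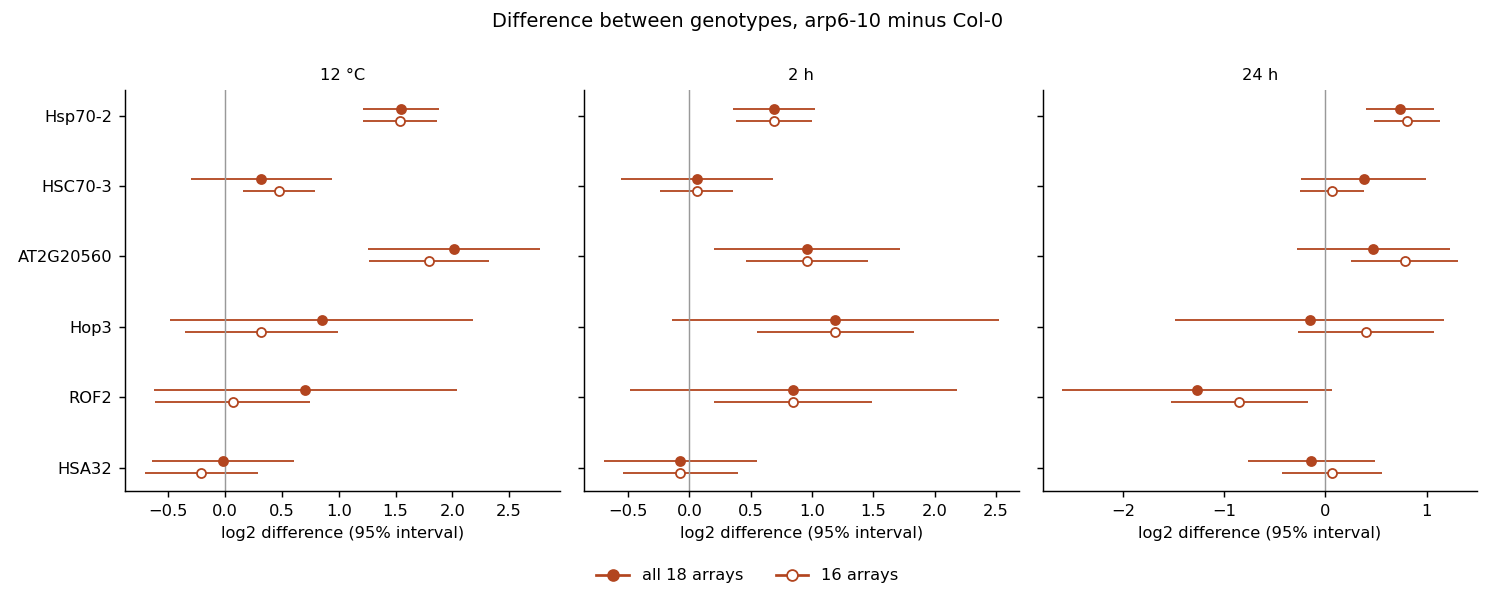
Difference of each gene between arp6-10 and Col-0 at 12 °C, 2 h and 24 h, as log2 with its 95% interval; filled points use all 18 arrays, open points 16. Hsp70-2 is above 0 at all 3 points, and AT2G20560 is above 0 at 12 °C, at 2.02.

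Between genotypes at 12 °C, Hsp70-2 and AT2G20560 were called higher in arp6-10, 2 of 6, where 17.6% of tested probe sets were. The median over the 6 was 0.78, against -0.05 over all tested. On 16 arrays HSC70-3 was called too, 3 of 6, where 20.7% were. At 2 h, Hsp70-2 alone was called higher, 1 of 6, where 5.18% of tested probe sets were, and Hop3 and AT2G20560 joined it on 16 arrays, 3 of 6, where 10.6% were. At 24 h it was Hsp70-2 again, 1 of 6, where 0.477% of tested probe sets were called higher, or 1.62% on 16 arrays.

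The difference of the 2 h responses was called for 0 of 6 genes, where 0.59% of tested probe sets were called in either direction (limma, with 2268 at an unadjusted p under 0.05). On 16 arrays Hsp70-2 was called lower in arp6-10, where 1.53% were. The difference of the 24 h responses was called for Hsp70-2, lower in arp6-10, 1 of 6, where 4.33% of tested probe sets were, or 7.75% on 16 arrays. For ROF2 this difference was 0.14 at 2 h (95% interval -1.75 to 2.03) and -1.98 at 24 h (-3.86 to -0.09, adjusted p = 0.203). For Hop3 it was 0.34 at 2 h (-1.55 to 2.22) and -1.01 at 24 h (-2.89 to 0.88, adjusted p = 0.546). On 16 arrays the ROF2 difference was 0.78 at 2 h and -0.92 at 24 h (adjusted p = 0.369 and 0.205). The Hop3 difference was then 0.87 at 2 h and 0.08 at 24 h (adjusted p = 0.307 and 0.933), so its direction at 24 h turned.

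**Figure D4:**
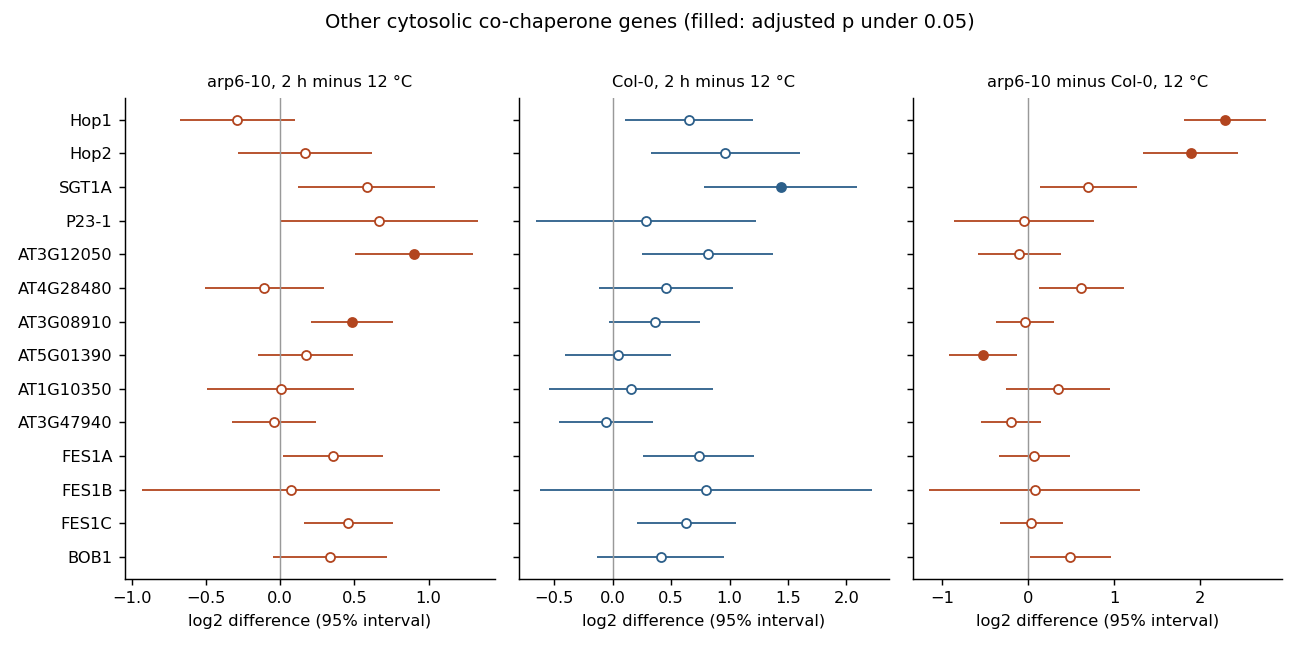
Change at 2 h in arp6-10 and in Col-0, and difference between genotypes at 12 °C, for 14 other cytosolic chaperone genes, as log2 with 95% intervals from all 18 arrays; filled points have an adjusted p under 0.05. Hop1 and Hop2 are higher in arp6-10 at 12 °C, by 2.29 and 1.89, 2 of 14, where 17.6% of tested probe sets were called higher.

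Other genes of the cytosolic chaperone system were read from lists of Hsp70 and Hsp110, Hsp90 and its co-chaperones, J-domain proteins and nucleotide exchange factors, and disaggregation proteins. These held 14 tested genes besides the 6. Of 7 loci on the Hsp70 and Hsp110 list, the 2 tested were members, so no other gene of that list was examined. Of 16, 15 and 3 loci on the other lists, in the order named, 7, 9 and 2 were tested, members included. At 2 h in arp6-10, 2 of 14 were called higher, AT3G12050 of the Hsp90 co-chaperone list (0.90, 1.87-fold, adjusted p = 0.0142) and the J-domain gene AT3G08910 (0.48, adjusted p = 0.0483), with a median of 0.25 over the 14, where 1.86% of tested probe sets were called higher. In Col-0 at 2 h, 1 of 14 was, SGT1A, an Hsp90 co-chaperone (1.44, 2.71-fold, adjusted p = 0.0115), with a median of 0.54, where 4.36% were. On 16 arrays 5 and 6 of the 14 were called higher in arp6-10 and Col-0 at 2 h, where 8.4% and 11.2% of tested probe sets were. From 2 h to 24 h in arp6-10, AT3G12050 fell by 0.85 (adjusted p = 0.0272) and BOB1 by 0.75 (adjusted p = 0.0442), 2 of 14, where 0.923% of tested probe sets fell.

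Hop1 and Hop2, which share their bridging role with Hop3, had higher levels in the mutant at 12 °C and 2 h, and rose by 24 h in Col-0. They were the 2 of 14 called higher in arp6-10 at 12 °C, where 17.6% of tested probe sets were, with a median of 0.07 over the 14. They were also the 2 called higher in arp6-10 at 2 h, where 5.18% were, and at 24 h in Col-0, where 10.3% were. Their 24 h responses were the 2 of 14 called lower in arp6-10, where 4.33% were. At 12 °C Hop1 was at 8.85 ± 0.25 in arp6-10 and 6.56 ± 0.27 in Col-0 (SD, n = 4 and 2), a difference of 2.29 (4.89-fold, adjusted p = 2.59e-06). Hop2 was at 9.44 ± 0.31 in arp6-10 and 7.54 ± 0.43 in Col-0, a difference of 1.89 (3.72-fold, adjusted p = 5.82e-05). In arp6-10 their changes at 2 h were -0.29 and 0.17 (adjusted p = 0.42 and 0.741), and at 24 h in Col-0 Hop1 rose by 1.60 (3.03-fold, adjusted p = 0.000862) and Hop2 by 1.39 (2.62-fold, adjusted p = 0.0059). At 2 h they were still 1.35 and 1.10 higher in arp6-10 (adjusted p = 0.0022 and 0.0162), and their 24 h responses were lower there by -1.48 and -1.61 (adjusted p = 0.0119 and 0.0171). Hop1 also rose by 0.95 from 2 h to 24 h in Col-0 (adjusted p = 0.0455, where 2.73% of tested probe sets rose). The J-domain gene AT5G01390 was lower in arp6-10 at 12 °C by -0.53 (adjusted p = 0.0392), where 14.7% of tested probe sets were. Whether probes of one Hop gene also detect another was not tested.

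Of 8 tested subunits of the CCT chaperonin, a ring complex that folds actin and tubulin, 0 were called at 2 h in arp6-10 and 1 in Col-0, CCT8, which fell by 1.00 (adjusted p = 0.0285, where 3.54% of tested probe sets fell). On 16 arrays 4 of 8 were called lower in arp6-10 and 6 of 8 in Col-0, where 8.62% and 10.1% of tested probe sets were. With all arrays the median of the 8 was -0.35 in arp6-10 and -0.64 in Col-0. Among organelle chaperones the chloroplast chaperonin gene CPN60BETA2 was the 1 gene tested of 15 listed, and it was 1.35 higher in arp6-10 at 12 °C (2.55-fold, adjusted p = 0.000414). It rose by 0.89 at 24 h in Col-0 (adjusted p = 0.032). Of tested probe sets, 17.6% and 10.3% were called higher in these comparisons. CPN60BETA2 was also called lower from 2 h to 24 h in arp6-10 (-0.78), where 0.923% of tested probe sets were. Its 24 h response was called lower in arp6-10 than in Col-0 (-1.40), where 4.33% were. The 21 listed loci of heat shock factors and their binding protein were not analysed here.

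Likeness of pattern was measured as the root mean square difference between the 6 group means of a gene and those of each of 8645 other tested genes, each gene centred on its own mean. For ROF2 the nearest gene was Hop3, at 0.74, followed by AT5G12110 at 0.79 and AT5G51440 at 0.79, where the median over all genes was 1.98. For Hop3 the nearest were AT1G53540, AT2G19310 and AT5G12110, at 0.49, 0.49 and 0.50, where the median was 1.36. For AT2G20560 they were AT2G07140 at 0.18, ATERDJ3B, a J-domain protein of the endoplasmic reticulum, at 0.30, and AT4G29520 at 0.34, where the median was 1.08. HSA32 was nearest to MCCA, a subunit of methylcrotonyl-CoA carboxylase, at 0.23, AT5G25450 at 0.26 and AT5G03120 at 0.27, where the median was 0.84.

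For Hsp70-2 the nearest genes by that measure were AT2G47390, AT3G15570 and AT1G02300, at 0.04, 0.06 and 0.07, where the median was 0.61. For HSC70-3 they were AT1G27820, AT4G11670 and AT3G07030, at 0.06, 0.07 and 0.07, where the median was 0.38, and on 16 arrays these took ranks 189, 87 and 332. The leading gene of the other 5 kept its rank on 16 arrays except for Hop3, where AT2G19310 moved to rank 1 and AT1G53540 to rank 3. Between the 6 genes themselves, Hsp70-2 and HSC70-3 were nearest, at 0.52, followed by Hop3 and AT2G20560 at 0.61, and ROF2 and HSC70-3 farthest apart, at 2.09. The measure is not scaled, so genes that change little lie near each other. The 0.52 is above the median of 0.38 for HSC70-3 and not far under that of 0.61 for Hsp70-2. At 24 h in Col-0 the estimates for the 2 genes had opposite signs, 0.67 for Hsp70-2 and -0.49 for HSC70-3. The HSC70-3 change was not called with all arrays (95% interval -1.21 to 0.22, limma adjusted p = 0.316).

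Neighbours on the chromosome were taken from the RefSeq gene table. AT2G20550, next to AT2G20560, rose by 1.81 at 2 h in Col-0 (adjusted p = 0.00391) and was 0.90 higher in arp6-10 at 12 °C (adjusted p = 0.0201), while its change at 2 h in arp6-10 was -0.43 (adjusted p = 0.32). AT5G02480, next to Hsp70-2, was 0.77 higher in arp6-10 at 12 °C (adjusted p = 0.00562), and AT4G21310, next to HSA32, was lower by -0.50 (adjusted p = 0.0422). At 12 °C 17.6% of tested probe sets were called higher in arp6-10 and 14.7% lower, and in Col-0 at 2 h 4.36% were called higher. Neighbours of the 6 genes without values here had no tested probe set. The other neighbour of Hsp70-2 is its close relative HSC70-1, which was not analysed here, and whether HSC70-1 transcripts add to the Hsp70-2 signal was not tested.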

How the data were processed

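Whole-seedling RNA of 18 samples was measured on 1 Affymetrix array each, from 1 µg of total RNA per the labels' protocols. Values deposited by the authors are linear intensities from 0 to 37829.8, for which the submitters' processing notes name GCOS. Neither a version nor an algorithm was given in the sources used here. Deposited intensities shared a mean of 250.03 to 250.04 after trimming 2% at each end, and their medians on log2(intensity + 16) ran from 6.27 to 6.72. No detection calls were used.

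Values were quantile-normalised and put on log2(value + 16). From 22810 probe sets, 64 controls were dropped, as were the dimmest by mean level (under the 30th percentile), which left 15922 for testing. All 11 comparisons were contrasts in 1 model of the 6 group means (limma 3.58.1 in R 4.3.3, with eBayes and its trend option, two-sided, on 12 residual degrees of freedom), adjusted by Benjamini-Hochberg over all tested probe sets. The number of arrays limits the precision. The fit was tested on simulated data with known changes. The outcome is not given here, so it adds no support to the calls.

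Names came from the platform annotation, in which 13513 probe sets have 1 gene, 503 have several and 8730 are not listed. Symbols were updated through RefSeq's TAIR10.1 table, which matched 13436. Coordinates are not printed because the genome build behind the probe design is not stated. Genes named are the 6 members, members of the fixed lists past the threshold, and the 3 genes most like each member; chromosomal neighbours were added after their values were seen. The members and lists were chosen with earlier results of these data known.

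Same-numbered arrays of different groups deviated together (r over 0.1) in 9 of 36 pairs, with r from -0.40 to 0.56, so the numbers were not taken as pairs. Alternatives were the values as deposited, pseudocounts of 1 and 64, no filter, no variance trend, only the compared groups, the replicate number as a block, leaving out both arrays at odds with their labels, and leaving out each array.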

Additional observations from a re-analysis of the deposited data

Results flagged for a closer look

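HSC70-3 on the array labelled arp6-10 24 h replicate 2 stood apart from its group, at 11.60 on the log2 scale, against 10.42, 10.30 and 10.30 on the other arrays of the group. Of 18 gene and group combinations tested in this way, about 1 in 20 is flagged by chance, and this array is one of those that went against their labels over all probe sets.

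The 24 h response of Hsp70-2 differed between genotypes, by -0.81 for arp6-10 minus Col-0 (adjusted p = 0.0434, limma). The call was lost in 19 of 26 alternatives, among them the replicate block (adjusted p = 0.0567), only the compared groups (adjusted p = 0.106) and a pseudocount of 64 (adjusted p = 0.0542).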

How the results depend on the processing

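Of 528 values of a gene under an alternative other than leaving out 1 array, 482 kept their direction and side of the threshold, 15 lost a call, 18 gained one and 13 turned in sign. Leaving out 1 array gave 1074, 75, 6 and 33 of 1188. Those that turned were called neither before nor after. With the values as deposited they were -0.032 and 0.028 for Hsp70-2 from 2 h to 24 h in arp6-10 and Col-0, 0.13 and 0.051 for HSA32 between genotypes at 12 °C and 2 h, and -0.0014 for HSC70-3 between genotypes at 2 h. With a pseudocount of 1 they were -0.43 for ROF2 and -0.63 for Hop3 in the difference of the 2 h responses. Without both arrays at odds with their labels they were 0.40 for Hop3 and 0.060 for HSA32 between genotypes at 24 h, 0.14 for HSA32 in the difference of the 2 h responses, and 0.078 for Hop3, 0.27 for HSA32 and -0.41 for HSC70-3 in that of the 24 h responses. Leaving out 1 array gave -0.039 to 0.087 for Hsp70-2 and -0.32 to 0.11 for HSC70-3 from 2 h to 24 h in arp6-10, and -0.16 to 0.10 for Hsp70-2 in Col-0. Between genotypes it gave -0.42 to 0.39, -0.18 to 0.031 and -0.27 to 0.060 for HSA32 at 12 °C, 2 h and 24 h, and -0.48 to 0.40 for Hop3 at 24 h. For the difference of the 2 h responses it gave -0.26 to 0.78 for ROF2, -0.22 to 0.89 for Hop3 and -0.46 to 0.34 for HSA32, and for that of the 24 h responses -0.52 to 0.28 for HSA32 and -0.25 to 0.21 for HSC70-3. Of 22 calls, 9 held in every alternative: ROF2, Hop3 and HSA32 at 2 h in arp6-10, ROF2 and HSA32 from 2 h to 24 h in arp6-10, ROF2 and AT2G20560 at 2 h in Col-0, and AT2G20560 and Hsp70-2 between genotypes at 12 °C. Without both arrays at odds with their labels, members called went to 5 against 0 (24 h in arp6-10), 2 against 1 (2 h to 24 h in Col-0), 3 against 1 (genotypes at 2 h) and 1 against 0 (difference of the 2 h responses). With only the compared groups they were 2 against 1 (2 h to 24 h in Col-0), 4 against 1 (genotypes at 2 h), 0 against 1 (genotypes at 24 h) and 0 against 1 (difference of the 24 h responses). With the values as deposited or a pseudocount of 1, 0 against 1 was called from 2 h to 24 h in Col-0. For the difference of the 24 h responses a pseudocount of 1 gave 2, and one of 64 gave 0, against 1. The replicate block gave 0 against 1 for genotypes at 24 h and for the difference of the 24 h responses, and 60 against 94 probe sets for the difference of the 2 h responses; the numbers share no stated source. Leaving out 1 array gave 3 to 4 members (arp6-10 at 2 h), 0 to 2 (arp6-10 at 24 h), 2 to 3 (arp6-10, 2 h to 24 h), 2 to 5 (Col-0 at 2 h), 0 to 4 (Col-0 at 24 h), 0 to 1 (Col-0, 2 h to 24 h), 2 to 2, 0 to 2 and 0 to 1 (genotypes at 12 °C, 2 h and 24 h), and 0 to 0 and 0 to 1 (differences at 2 h and 24 h). Over all probe sets, counts moved by more than 1.5 times without both arrays at odds with their labels, to 2710 against 589, 4593 against 0 and 2369 against 291 in arp6-10 (2 h, 24 h, 2 h to 24 h), 3385 against 1258, 4964 against 2775 and 2218 against 744 in Col-0, 3089 against 1475 and 476 against 148 between genotypes at 2 h and 24 h, and 327 against 94 and 1943 against 925 for the differences. Leaving out 1 array, these counts ran from 195 to 1421, 0 to 1520 and 130 to 1059 in arp6-10 (2 h, 24 h, 2 h to 24 h), 219 to 2010, 465 to 3755 and 71 to 1134 in Col-0, 2685 to 5755, 182 to 1986 and 29 to 281 between genotypes at 12 °C, 2 h and 24 h, and 9 to 207 and 97 to 1103 for the differences, so the background shares in the text are as loose. With only the compared groups they were 157 against 291 (arp6-10, 2 h to 24 h), 2593 against 1258 and 1821 against 744 (Col-0 at 2 h, and 2 h to 24 h), 3229 against 5141, 3111 against 1475 and 17 against 148 (genotypes), and 28 against 94 and 479 against 925 (differences). The values as deposited gave 1156 against 744 (Col-0, 2 h to 24 h), and the difference of the 2 h responses had 185 and 22 at pseudocounts of 1 and 64. The split of higher and lower calls with the values as deposited was 265 and 446 against 296 and 293 (arp6-10 at 2 h), 241 and 138 against 144 and 147 (arp6-10, 2 h to 24 h), 2484 and 988 against 1645 and 1130 (Col-0 at 24 h), 863 and 293 against 435 and 309 (Col-0, 2 h to 24 h), 3688 and 1809 against 2804 and 2337 and 1271 and 574 against 825 and 650 (genotypes at 12 °C and 2 h). On that scale the median change over all probe sets was 0.14 for Col-0 at 24 h and from 2 h to 24 h. Why counts moved was not tested. Dim genes limit precision: ROF2, Hop3 and AT2G20560 had group means under 5 in Col-0 at 12 °C, and ROF2 and Hop3 in arp6-10 at 12 °C on 16 arrays.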
